A study of Oryza sativa Indica Group and Oryza sativa Japonica Group with 12 samples.

Results

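H3K27me3-associated chromatin loops of roots were compared with those of seedlings in Zhenshan 97 (ZS97), an indica rice variety. The comparison takes all 4 ZS97 samples of the 12 in the study, 2 replicates labelled root and 2 labelled seedling, which the authors deposited as 1 pooled loop list per tissue, 2 of the 6 lists in all. The other groups were roots and seedlings of the indica variety Minghui 63 (MH63), and seedlings of Dongjin and of osemf2b. No ZS97 group carried a mutation, transgene or treatment, and the antibody was the same in both. The labels give no age, do not say whether replicates came from separate plants, and do not say whether the seedlings included their roots. The tissue labels could not be checked against marker genes, because no annotation of the build behind the lists was used here.

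H3K27me3 is a repressive histone mark written by Polycomb repressive complex 2. In plants it lies over many developmental genes that are silent in a given tissue, and its pattern differs between organs. Marked domains can meet in the nucleus, along a chromosome or across chromosomes. ChIA-PET pulls down chromatin that carries the mark, ligates DNA ends held close together, and reads both ends of each product as a paired-end tag (PET). A loop is a pair of anchors joined by at least 2 PETs that passed the authors' thresholds. Anchors of the 4 ZS97 and MH63 lists that overlapped were merged into 14152 regions, and the partners of a region are the other regions it was looped to. A contact that is not listed fell below the authors' thresholds and is not shown to be absent.

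The root list held 110885 loops (95% interval 110233 to 111540) and 535937 PETs between 11997 anchors. The seedling list held 90390 loops (89802 to 90981) and 484060 PETs between 9780 anchors. Total tags, recovered from the deposited p-values, were 13.4 M in root and 51.2 M in seedling, so the seedling list had 3.83 times the tags of the root list but fewer listed PETs. The highest listed p-value was 0.0132 in root and 0.00301 in seedling. With 1 list per tissue there was no spread between replicates, no test was made, and every interval here is a 95% interval of counting error only. The difference in depth goes with the tissue, and the depth and the tissue cannot be told apart.

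Fewer of the root contacts crossed between chromosomes. Loops between chromosomes made up 62.3% of the root list (62.0 to 62.6) and 71.8% of the seedling list (71.5 to 72.1), 9.47 percentage points less in root. They held 32.6% of PETs in root and 42.1% in seedling. The shift came from both sides in PETs: within chromosomes root had 361442 PETs and seedling 280045, and between chromosomes root had 174495 and seedling 204015. In loops, root had more of both kinds, 41772 against 25494 within and 69113 against 64896 between chromosomes. Loops of 2 PETs made up 73.5% of the loops between chromosomes in root and 60.9% in seedling. Among loops that held at least 10 times the PETs made by chance, the share between chromosomes was 61.2% in root and 72.7% in seedling, with at least 3 PETs 28.6% and 55.4%, and with at least 5 PETs 4.72% and 9.36%.

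The shift was seen on every chromosome. On all 12, the share of loops that reached another chromosome was lower in root, with intervals that did not overlap. The difference was smallest on chromosome 1, at -3.85 percentage points, and largest on chromosome 12, at -12.1, with -9.73 on chromosome 11. On chromosome 12 the share was 84.5% in seedling (83.8 to 85.2) and lay between 71.6 and 73.1 in root. In MH63 the share was also lower in root on all 12 chromosomes. Among MH63 loops at least 10-fold over chance the direction was the other way once thin loops were left out, with 27.4% between chromosomes in root and 26.5% in seedling at 3 or more PETs, and 2.42% and 1.88% at 5 or more.

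**Figure D1:**
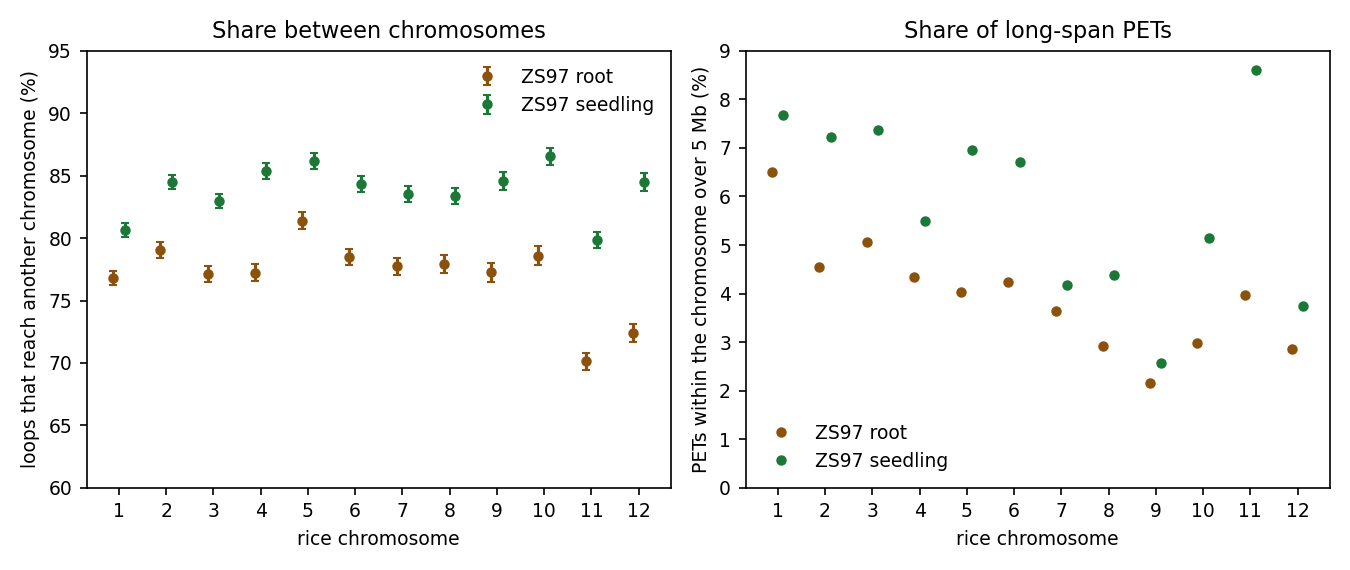
Left, the share of loops touching each chromosome that reach another chromosome, in percent, with bars for 95% counting intervals and an axis that starts at 60; right, the share of PETs within each chromosome that span over 5 Mb, in percent. Root points lie below seedling points on all 12 chromosomes in both panels, with the widest gap in the left panel on chromosome 12.

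Of the 66 pairs of chromosomes, 60 had fewer PETs in root. The difference was uneven. Chromosomes 2 and 5 shared 2348 PETs in root and 3353 in seedling. Chromosomes 4 and 12 went the other way, with 2289 PETs in root and 2017 in seedling, and so did 4 and 11 (2947 and 2675) and 11 and 12 (2826 and 2549). As a share of all PETs between chromosomes, root over seedling ran from 0.819 for chromosomes 2 and 5 to 1.33 for chromosomes 4 and 12.

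The next comparison followed partners per region. Root looped 10915 regions and seedling 7981, of which 7047 were looped in both, 3868 in root alone and 934 in seedling alone. The median looped region had 11 partners in root and 16 in seedling, and 673 regions had 1 partner in root and 61 in seedling. A region was called when its partner numbers differed at least 2-fold with an interval of the ratio that excluded 1, among regions with at least 10 partners in both tissues together. Of 8394 regions compared, 1697 had more partners in root (20.2%) and 1265 had fewer (15.1%). That balance depended on the scale: on total partners, 1472 had more and 1704 fewer, with PETs thinned to the smaller total 1343 and 1479, and with a common highest p-value 1068 and 1900.

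The calls were nearly all in 1 direction for partners on the same chromosome and went both ways for partners on other chromosomes. Within chromosomes, 983 of 3970 regions gained (24.8%) and 33 lost (0.831%). Across chromosomes, 899 of 7173 regions gained (12.5%) and 1102 lost (15.4%). With a common highest p-value, 605 regions were higher and 54 lower in root within chromosomes, and 277 higher and 2325 lower between them. In the main calls, called gains within chromosomes seldom came with called losses between them. Of 3819 regions compared on both, 370 had more partners of both kinds in root, 21 had fewer of both, 3 had more within and fewer between, and 0 the reverse. The rest were not called on both kinds. Joint calls were not counted with a common highest p-value. MH63 leaned the same way for both kinds, with 16.8% of regions higher and 7.57% lower in root within chromosomes, and 7.11% higher and 23.2% lower between them.

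**Figure D2:**
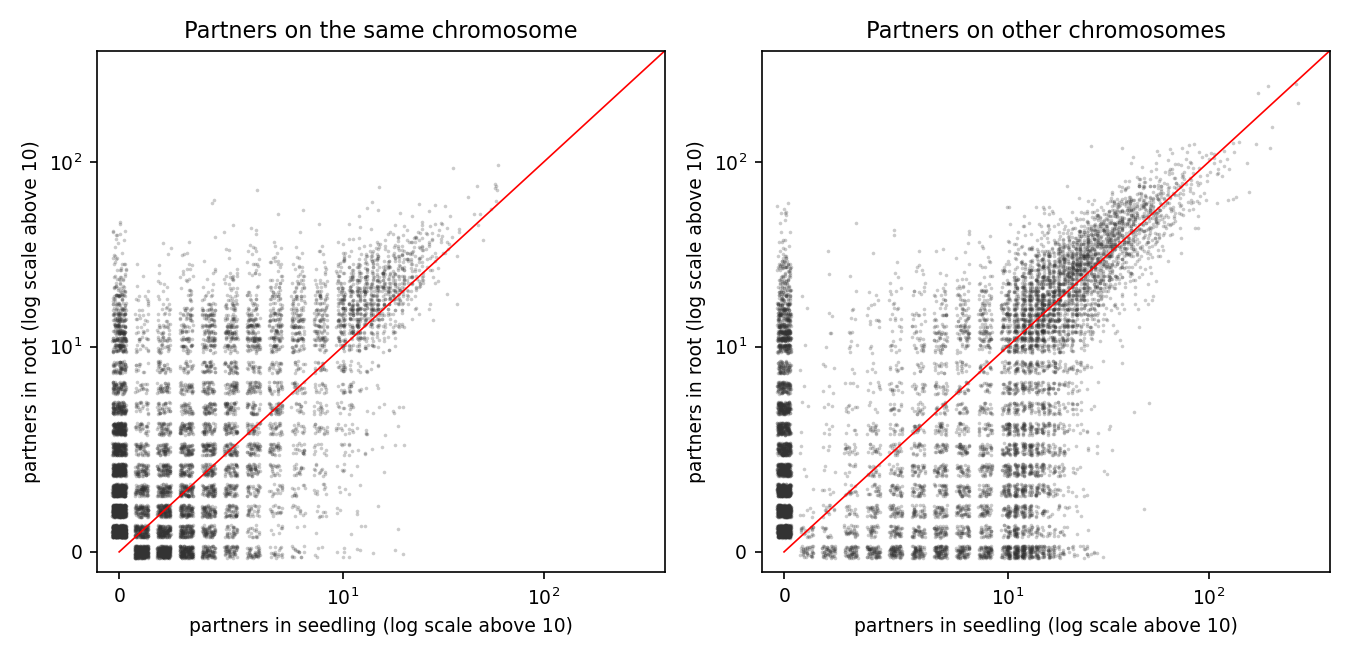
Each point is a region, with its partners in seedling on the x axis and in root on the y axis, linear up to 10 and on a log scale above, jittered by at most 0.3; the line marks equal numbers. On the left, partners on the same chromosome, the cloud lies above the line (983 regions called higher, 33 lower); on the right, partners on other chromosomes, points lie on both sides (899 higher, 1102 lower).

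Partner number moved with H3K27me3 tags. Of the regions that gained, 1203 had no listed seedling loop, and those with tags in both lists held a median 3.71 times larger share of all anchor tags in root. Regions that lost held a median 0.493 times the share, 498 of them had no listed root loop, and they were narrow, at a median of 1.68 kb against 4.90 kb for gained regions. Among regions whose tag shares lay within 1.5-fold of each other the balance turned, with 82 of 3144 regions called higher in root and 189 lower. Within chromosomes 197 of 1940 such regions had more partners in root and 3 fewer, and between chromosomes 84 of 2975 had more and 224 fewer. Many gains were also seen in the other variety. Of the 1334 gained regions that could be compared in MH63, 788 (59.1%) were called higher in MH63 root and 28 lower, where 7.01% of the regions not called in ZS97, and 23.4% of all regions compared in MH63, were higher. Of the 714 lost regions that could be compared there, 208 (29.1%) were lower in MH63 root, against 18.9% of regions not called in ZS97 and 14.1% of all.

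Gains were dense on chromosomes 11, 12 and 4. On chromosome 11, 241 of 735 regions (32.8%) had more partners in root. The share was 31.4% on chromosome 12 (170 of 541), 26.6% on chromosome 4 and 12.6% on chromosome 1. For partners on the same chromosome it reached 51.3% on chromosome 12 and 43.5% on chromosome 11, and was 9.91% on chromosome 1.

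Among the 8 regions that gained the most partners, 6 lay on chromosomes 11 and 12. The largest gain was at chr12:16836725-16927996, a 91.3 kb domain with 185 partners in root and 61 in seedling, 3.03-fold more (2.26 to 4.12). Its partners on the same chromosome went from 6 in seedling to 71 in root, and its rank by partners from 349 to 7. In MH63 it had fewer partners in root, 68 against 131 in seedling. That reversal lay in partners on other chromosomes, 11 in root and 80 in seedling. On its own chromosome it had 57 and 51, and its PETs were 3633 and 928. Farther along the arm, chr12:19765491-19823178 had 154 partners in root and 60 in seedling (2.57-fold, 1.89 to 3.52), with 73 and 15 on its own chromosome. That domain held more tags in seedling (13344) than in root (9995), though the seedling list had more tags in all. Its share of all anchor tags was 2.44 times larger in root. In MH63 it had 69 partners in root and 76 in seedling, of which 60 and 37 were on its own chromosome.

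Some gained regions had no listed anchor in the seedling list at all. These were chr11:16593408-16632784 with 102 root partners, chr12:19456834-19485252 with 101, chr11:7548459-7583670 with 99, and chr11:9689465-9703836 with 91. The same regions had 41 to 50 partners in MH63 root and at most 1 in MH63 seedling, so both root lists held them as well-connected domains and neither seedling list did. No fold is given against a region with no listed loop. The other named gains were at chr5:2898349-2984781, with 157 partners in root and 33 in seedling (4.76-fold, 3.25 to 7.15), and at chr8:17010251-17070519, with 152 and 46 (3.30-fold, 2.36 to 4.70). In MH63 the region on chromosome 5 also had more partners in root (32) than in seedling (21), with 1273 and 69 PETs. The region on chromosome 8 had fewer partners in MH63 root, 59 against 87 in seedling, though more PETs, 2698 against 907.

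The largest losses were smaller domains. At chr4:26890234-26917663, 27.4 kb wide, 69 seedling partners faced 8 in root, a ratio of 8.63 in favour of seedling (4.14 to 20.8). Its anchor held 41224 tags in seedling and 93 in root, and in MH63 it had 108 partners in seedling and 0 in root. The region chr3:30434842-30451664 had 63 partners in seedling and 4 in root (15.8-fold, 5.86 to 59.6), and chr5:1553151-1565148 had 54 and 8 (6.75-fold, 3.19 to 16.4). In both, root tags were few, 149 and 287, where seedling had 5667 and 11304. On chromosome 2, chr2:21858955-21866379 and chr2:4511769-4522415 each had 45 seedling partners and no listed root anchor. The first was looped in MH63 seedling as well, with 32 partners, and the second had none in either MH63 list. The remaining named losses were chr3:25414663-25425505 with 52 partners in seedling and 11 in root, chr10:12587181-12598262 with 61 and 20, and chr11:19058229-19065637 with 72 and 26. The last sits beside hubs of the same chromosome whose partner numbers differed far less.

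**Figure D3:**
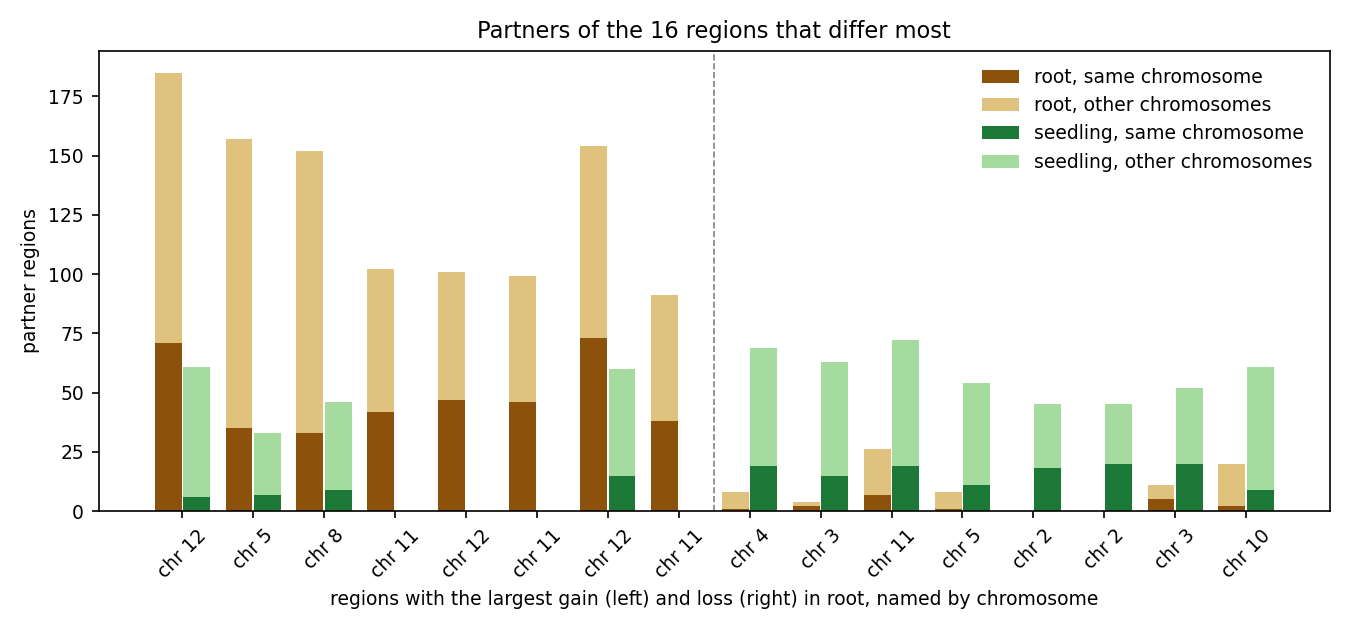
Partner regions of the 8 regions with the largest gain and the 8 with the largest loss in root, in the order of the difference, with root and seedling bars split into partners on the same chromosome (dark) and on other chromosomes (light). The 4 gained regions without seedling bars and the 2 lost regions without root bars had no listed anchor in that tissue.

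Within single regions, the share of partners on other chromosomes leaned the same way. Over 4375 regions with at least 10 partners in each tissue, the median share was 67.5% in root and 75% in seedling, and 3134 regions (71.6%) were lower in root. Intervals were apart for 89 regions (2.03%), each lower in root, and for 0 (0%) in the other direction. In MH63, 3.17% of regions were lower and 0.0271% higher in root. Counted in PETs in place of partners, 1499 regions were lower and 244 higher in root. The largest shift was at chr11:9964377-9967686, where 9 of 27 root partners (33.3%) and 16 of 16 seedling partners (100%) lay on other chromosomes. At chr8:1289849-1295390 the share was 16.7% in root and 82.4% in seedling, at chr4:29227572-29232454 20% and 83.3%, and at chr2:28448925-28453622 21.4% and 84.6%. At chr11:8493832-8501419, 34 of 45 root partners and 2 of 13 seedling partners were on chromosome 11. These 5 regions were 3.31 to 7.59 kb wide, with 14 to 45 partners in root and 12 to 17 in seedling.

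Hubs, the 100 regions with the most partners in a list, were broad domains with a median width of 50.6 kb in root and 49.0 kb in seedling. They were partly the same: 58 were hubs in both tissues, 92 root hubs were among the first 500 regions of seedling, and 99 seedling hubs were among the first 500 of root. The median hub had 127 partners in root and 108 in seedling, with 72.0% and 78.9% of them on other chromosomes.

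The top of both lists was shared. The leading root hub, chr12:17578538-17728023, had 362 partners in root and 330 in seedling (ratio 1.10, 0.942 to 1.28), an interval that includes no difference. Its same-chromosome partners numbered 96 in root and 59 in seedling, and its other partners 266 and 271. The leading seedling hub, chr2:16984222-17180348, had 336 partners in seedling and 281 in root. Other shared leaders were chr7:2097536-2260136 (310 in root, 246 in seedling), chr1:4954220-5091484 (308, 232), chr5:6148997-6274140 (197, 245) and chr7:1738144-1886545 (172, 218). No ratio among these hubs reached 2.

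Other hubs among the first 10 of a list differed to various degrees. The region chr12:16836725-16927996 ranked 7 in root and 349 in seedling, and its values are given above with the gains. In root, chr12:18741909-18842915 ranked 6 with 192 partners, of which 93 were on chromosome 12. In seedling it had 142, of which 35 were on chromosome 12, so its share of partners elsewhere was 51.6% in root and 75.4% in seedling. Also in the first 10 of root were chr9:15414738-15497536 (167 partners, 166 in seedling) and chr11:19106952-19200639 (163, 168). In seedling, chr8:4386507-4501019 ranked 5 with 235 partners against 155 in root, followed further down by chr8:672231-777953 (188, 118) and chr11:19214911-19291355 (172, 162). The hub chr10:16945665-17047395 had 186 partners in seedling and 123 in root, yet 27 of them on its own chromosome in seedling and 54 in root.

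Hubs of both tissues shared few partners on other chromosomes. The leading hub on chromosome 12 had 27 same-chromosome partners in common between its lists, and 12 on other chromosomes. Among the 58 common hubs there were 138 possible pairs within chromosomes, of which 52 were listed in root, 45 in seedling and 29 in both. Of 1515 possible pairs between chromosomes, 73 were listed in root, 90 in seedling and 3 in both.

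The median span of loops within a chromosome was 154 kb in root (150 to 157) and 143 kb in seedling (138 to 147). This direction did not hold: weighted by PETs the medians were 56.7 and 58.5 kb, and among loops of at least 5 PETs or with a common highest p-value the difference, root minus seedling, was -6.97 and -36.1 kb. Counted in loops, root had more of the middle range and less of the longest. Loops of 100 kb to 1 Mb made up 35.0% of those in root and 27.9% in seedling, and loops over 5 Mb made up 13.1% and 18.8%. The class of 100 kb to 1 Mb held 26.6% of PETs in root (26.5 to 26.7) and 26.4% in seedling (26.3 to 26.6), intervals that overlap. That of 20 to 100 kb held 46.0% of PETs in root and 43.2% in seedling. In PETs the class over 5 Mb held 4.04% in root (3.98 to 4.10) and 6.20% in seedling (6.11 to 6.29), lower in root on all 12 chromosomes. Loops over 1 Mb made up 24.4% in root and 28.7% in seedling, lower in root on 11 of 12 chromosomes. Chromosome 12 was the exception, with 29.1% in root and 26.3% in seedling, and its median span was 268 kb in root and 128 kb in seedling. Taken region by region over 994 well-connected regions, the median span was longer in root for 487 and shorter for 507.

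**Figure D4:**
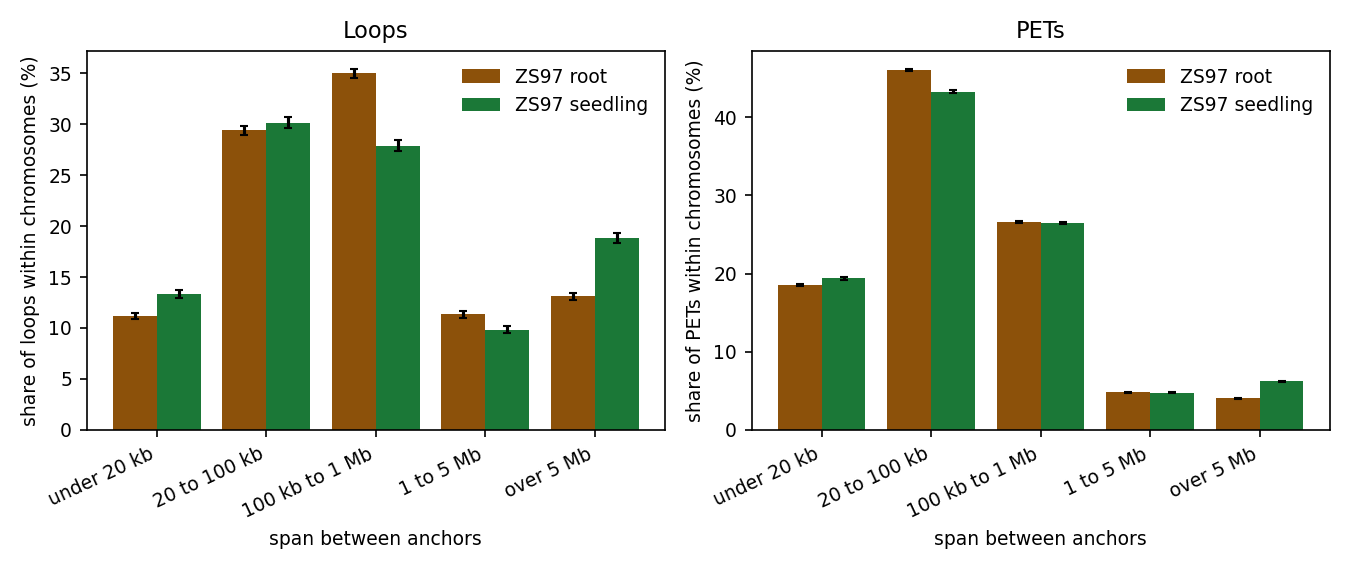
Share of loops (left) and of PETs (right) within chromosomes by span class, in percent, for root and seedling, with bars for 95% counting intervals. Root exceeds seedling among loops of 100 kb to 1 Mb (35.0% against 27.9%) and is below it over 5 Mb in both panels.

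Which pairs of regions were looped was compared last. Within chromosomes, 8087 pairs were listed in both tissues, 22.3% of the 36277 root pairs and 39.3% of the 20579 seedling pairs. Between chromosomes the overlap was 752 pairs, 1.09% of 68973 in root and 1.16% of 64711 in seedling. Local pairs were kept most. Under 20 kb, 42.7% of root pairs and 75.3% of seedling pairs were listed in the other tissue, and over 5 Mb 1.21% and 1.38%. Pairs in both tissues had a median span of 59.0 kb, those in root alone 292 kb, and those in seedling alone 1931 kb. Of 3331 regions compared on other chromosomes, 2455 (73.7%) had no such partner in common between tissues.

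Pairs of more PETs were listed in both tissues more often. Within chromosomes, 71.6% of root pairs and 86.9% of seedling pairs of at least 20 PETs were listed in the other tissue. Between chromosomes the numbers at that level were unequal: 87 pairs in root, of which 49.4% were in seedling, and 421 pairs in seedling, of which 15.7% were in root. Most of the seedling pairs joined wide, tag-rich domains at close to the PETs made by chance, with a median of 1.99 times chance against 82.4 in root. Among pairs of at least 20 PETs and at least 10 times chance, root had 55 and seedling 61. Of these, 43 root pairs (78.2%, 65.0 to 88.2) were in the seedling list, and 53 seedling pairs (86.9%, 75.8 to 94.2) were in the root list. Only 13 and 14 of them were in either MH63 list. Contacts between chromosomes that passed both cuts were thus mostly listed in both ZS97 tissues, inside a larger set that was mostly not. Whether the ends of these pairs lie in ZS97 where the build behind the lists places them was not tested. The share listed in both tissues depended on the cut in PETs. At 10 or more PETs and the same excess, 57.4% of root pairs and 85.6% of seedling pairs were in the other list. At 5 or more PETs the values were 18.5% and 17.4%.

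**Figure D5:**
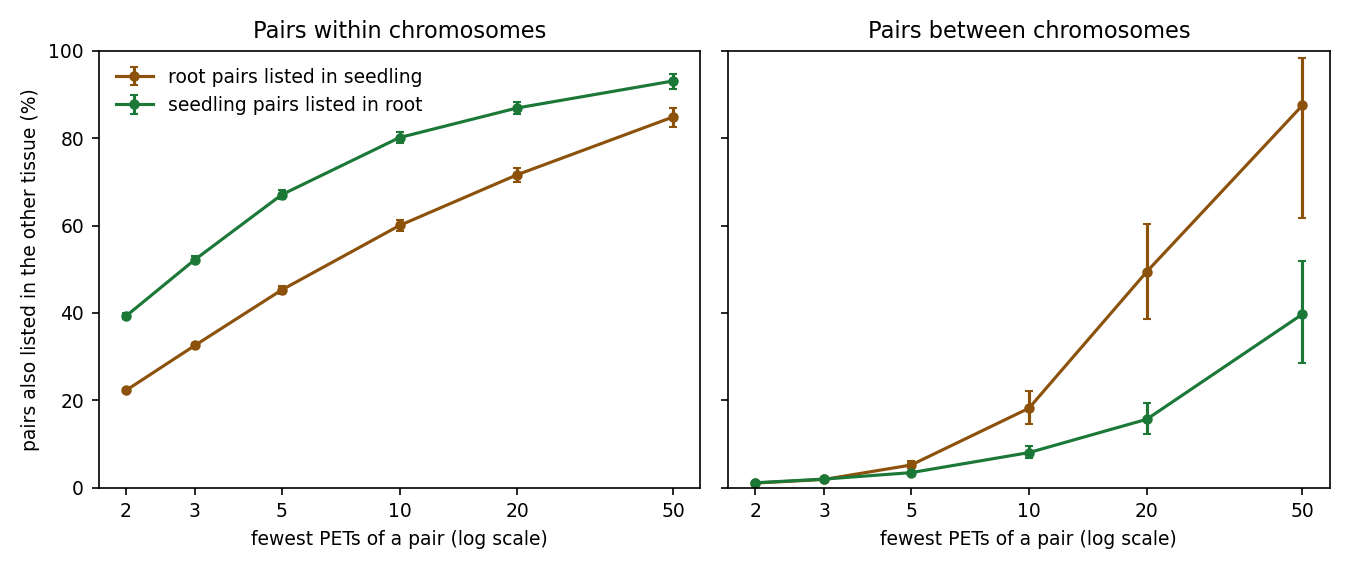
Share of region pairs also listed in the other tissue, in percent, against the fewest PETs of a pair (log scale from 2 to 50), within chromosomes (left) and between them (right), with 95% counting intervals. Within chromosomes both lines climb steadily, while between chromosomes the root line climbs to 87.5% and the seedling line to 39.7%.

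Among the strongest contacts between chromosomes, the narrower end was 3.04 to 13.2 kb wide in all 8 pairs with the most PETs in either tissue. The median width was 50.6 kb for root hubs and 4.73 kb for compared regions that were not called. The pair chr4:12178637-12186151 and chr8:16855769-16867939 led both lists, with 216 PETs in root and 348 in seedling, 638 and 599 times chance, and it was not listed in MH63. This single contact held 42.7% of the PETs of its chromosome 4 end in root and 75.3% in seedling. The second in both was chr3:21238916-21242836 with chr8:4784808-4847409, at 164 PETs in root and 317 in seedling. Further pairs listed in both tissues were the leading chr2 hub with chr6:22917122-22922500 (96 PETs in root, 194 in seedling), chr5:7246227-7250293 with chr8:7085412-7117237 (78, 175), chr4:14185468-14188650 with chr5:27955168-27958380 (57, 144), and chr9:12527504-12531134 with chr10:4200629-4217812 (53, 144). A further pair went the other way: chr6:23054180-23102526 with chr11:21496647-21509825 had 120 PETs in root and 76 in seedling, and was listed in both MH63 tissues at 107 PETs in root and 125 in seedling.

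Of the named pairs between chromosomes that a single tissue listed, 1 stood far above chance. The pair chr10:3121572-3146813 and chr12:9450995-9454038 had 81 PETs in root, 464 times chance, and was not listed in seedling, where its chromosome 12 end had no anchor. The other leading root-only pairs stood near chance. They were chr3:29316059-29379217 with chr5:1218994-1282043 (52 PETs, 1.97 times chance), chr1:4954220-5091484 with chr9:14197400-14238783 (44, 1.93) and chr3:27875107-27988637 with the same chr5 domain (43, 1.48). To be listed in seedling these would have needed 135, 164 and 87 PETs. At the same excess over chance as in root, each would have had more than that in seedling. The leading seedling-only pairs also stood near chance: chr2:8722131-8786227 with chr8:672231-777953 (129 PETs, 1.38 times chance), chr6:23054180-23102526 with chr11:24442373-24535579 (117, 1.40), chr5:6148997-6274140 with chr6:549499-570547 (108, 1.38) and chr2:33358350-33407487 with chr4:17752401-17784218 (90, 1.40). To be listed in root they would have needed 36, 37, 18 and 20 PETs. At the same excess over chance as in seedling, each would have fallen short of that in root.

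Over 1 Mb within a chromosome, the leading root contact joined the chromosome 12 hubs at 17578538 and 18741909, with 162 PETs in root and 192 in seedling, 4.17 and 2.30 times chance. The second of these hubs also joined chr12:20069117-20106721 with 99 PETs in root (10.8 times chance) and 25 in seedling (4.21). It met the most-gained region, chr12:16836725-16927996, with 47 PETs in root, and that pair was not listed in seedling, where 7 PETs would have been enough. Other root-only long contacts were the domain at chr5:1218994-1282043 with the gained region chr5:2898349-2984781 (78 PETs, 4.07 times chance, 9 needed in seedling) and with the hub at chr5:6148997-6274140 (80 PETs, 1.84, 213 needed), and chr9:14421198-14477352 with chr9:15526833-15583543 (39 PETs, 2.27, 9 needed). At the same excess over chance as in root, seedling would have had 5.19 PETs for the chromosome 12 pair, 5.41 for the chromosome 9 pair and 11.1 for the pair with the gained chromosome 5 region, so the first 2 could have gone unlisted at equal strength. For the pair with the chromosome 5 hub it would have had 322 PETs, above the 213 needed. The first 3 of these contacts each met a region with a larger tag share in root.

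The remaining long contacts were nearly all on chromosome 11, among 9 hub domains chosen for description after their values were seen. There are 4 between 18829603 and 19291355, 4 between 24442373 and 25122310, and 1 at chr11:26110617-26204868. Root joined the middle domains to each other with 1774 PETs and seedling with 523, while the first 4 were joined by 3556 PETs in root and 6208 in seedling. Against chance, pairs among the first 4 stood higher in root, at 12.1 to 32.5 times chance against 3.73 to 8.46 in seedling. Pairs among the middle domains stood at 14.2 to 50.1 times chance in root and 5.69 to 42.3 in seedling. The pair of the domains at 24749932 and 25022132 was slightly higher in seedling, at 19.3 against 18.9, and the other middle pairs were higher in root. The 26110617 domain met chr11:24442373-24535579 with 129 PETs in root (3.09 times chance) and 262 in seedling (1.98), chr11:25022132-25122310 with 106 (3.28) and 161 (2.27), and chr11:24625075-24704633 with 100 (3.46) and 5 (8.33). Across the first and middle groups, chr11:19214911-19291355 with chr11:24442373-24535579, had 85 PETs in root and 126 in seedling. The middle domains at 24625075 and 24749932 held 3.69 and 4.74 times larger tag shares in root, with 138 and 142 partners against 80 and 52 in seedling.

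The first group met the 26110617 domain with 225 to 289 PETs in all 4 seedling pairs, led by chr11:19106952-19200639 at 289, and in root that pair alone was listed, at 62 PETs. In seedling these pairs stood at 1.34 to 1.49 times chance, and the listed root pair at 1.73. The 3 pairs not listed in root would have needed 33 to 57 PETs there. At the same excess over chance as in seedling, the pairs of chr11:18904375-18975740 and chr11:18829603-18900577 would have fallen short. The pair of chr11:19214911-19291355 would have just reached the 45 PETs it needed. The other leading seedling-only long contact was chr6:24190553-24252128 with chr6:25399709-25463842, at 149 PETs and 1.59 times chance, for which root would have needed 12 PETs at 5.32 made by chance.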

How the data were processed

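Per the labels, ZS97 roots and seedlings were dual cross-linked, ligated through a biotinylated bridge linker and sequenced after Tn5 library preparation. The authors deposited 1 loop list per group that pools 2 replicates, with PETs per loop and tags per anchor as raw counts, and with p-values and FDR values below 0.05. No source used here names the loop caller, the aligner or the genome build of the lists. These deposited values were used as they are. Coordinates are given as 1-based, with the starts in the lists taken as 0-based. Of ZS97 root anchors, 63.8% overlapped a seedling anchor, and 21.4% after moving them by 50 kb. Of the same anchors, 82.6% overlapped an MH63 root anchor, and 30.1% after the move. The lists of both varieties were thus taken as sharing coordinates.

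PETs made by chance are the product of the tags of both anchors divided by total tags, the value at which the deposited p-values equal a Poisson probability. Regions are anchors overlapping by at least 1 bp, merged over 4 lists. Intervals are exact Poisson, Clopper-Pearson and order-statistic 95% intervals that cover counting error only, since PETs are amplified molecules. Named were the 10 leading hubs per tissue, 8 gains, 8 losses, up to 5 share shifts each way, and, per tissue and for contacts between chromosomes and over 1 Mb, the 6 pairs with the most PETs and the 4 leading pairs not listed in the other tissue. The comparison, its regions and these rules were chosen with earlier results of these data known. Alternatives are given below. Python 3.11.15, pandas 2.3.3, numpy 2.4.6, scipy 1.17.1 and matplotlib 3.10.9 were used.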

Additional observations from a re-analysis of the deposited data

Results flagged for a closer look

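Several differences between root and seedling had opposite signs in ZS97 and MH63. The difference between varieties was not tested, since each group had 1 list. Root minus seedling, the number of loops listed was 20495 in ZS97 and -11327 in MH63. For loops within a chromosome it was 16278 and -115, and for loops between chromosomes 4217 and -11212. The median span of loops within a chromosome differed by 10.8 kb in ZS97 and -77.2 kb in MH63, and the median weighted by PETs by -1.82 kb and 0.159 kb. Region pairs between chromosomes with at least 20 PETs differed by -334 in ZS97 and 39 in MH63. Total tags ran in opposite directions too, at 13.4 M in root and 51.2 M in seedling of ZS97 and 41.3 M and 22.1 M in MH63, and their part in these differences was not tested.

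Of the regions called in both varieties, 28 had more partners in ZS97 root and fewer in MH63 root, and 24 had the reverse. The former include chr11:24749932-24898321, with 142 partners in root and 52 in seedling of ZS97 and 49 and 151 in MH63. These are counts of partners, and its PETs with neighbouring hub domains were higher in MH63 root. With the domains at 24442373, 24625075, 25022132 and 26110617 it had 1073, 1304, 843 and 387 PETs in MH63 root. In MH63 seedling it had 397, 204, 291 and 191. The region chr7:17491624-17538075 had 146 and 64 in ZS97 and 43 and 112 in MH63.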

How the results depend on the processing

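No paired analysis was possible because each list pools both replicates, and for the same reason no replicate was left out. The lower share of contacts between chromosomes and the lower share of loops over 1 Mb in root kept their direction in every alternative below. With loops both at least 10-fold over chance and of at least 5 PETs, also chosen after seeing the data, loops over 1 Mb made up 1.48% in root and 1.43% in seedling, the opposite direction. The median span did not, and the cause was not tested. The alternative that keeps loops at least 10-fold over chance and the one that leaves out chromosomes 11 and 12 were chosen after seeing the data. A listing between tag-rich domains needed many PETs, and the part of depth in which weak contacts were listed was not tested.

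With loops of at least 3 PETs, the share between chromosomes differed by -17.8 percentage points in loops and -14.0 in PETs, the median span by 1.19 kb, 510 regions had more and 319 fewer partners, and 29.0% of root pairs within and 1.59% between chromosomes were in seedling. With at least 5 PETs these were -22.4, -13.8, -6.97 kb, 164, 141, 35.1% and 3.90%, with -3.40 points in loops over 1 Mb and 25 regions of lower share between chromosomes. With a common highest p-value they were -19.4, -20.1, -36.1 kb, 1068, 1900, 25.8% and 1.18%, with -12.0 points over 1 Mb and 275 regions of lower share. With loops at least 10-fold over chance they were -11.5 and -12.2 points, 29.0 kb, 19.9% and 0.859%, with -6.99 points over 1 Mb. PETs thinned to the smaller total gave -11.2 and -10.7 points, and weighting by PETs gave a median span of -1.82 kb and -2.10 points over 1 Mb.

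Regions with more and fewer partners numbered 877 and 474 with at least 20 partners summed, 494 and 767 with a listed loop in both tissues, 82 and 189 with tag shares within 1.5-fold, 983 and 33 on the same chromosome, and 899 with more on other chromosomes. Without chromosomes 11 and 12 they were 1286 and 1114. Shares taken in PETs gave 244 regions higher and 1499 lower in root. Regions merged from the ZS97 lists gave 1 of higher share and 0.959% of root pairs between chromosomes in seedling, and bins of 10 kb gave 19.2% within, 0.776% between and 35 hubs in common. Among the first 50 and 200 regions, 30 and 135 hubs were in common. The differences in partners of the 16 named gains and losses kept their direction under all 4 filters of loops, 24 values staying within counting error and 40 moving beyond it.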

Other observations

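Regions that gained partners in ZS97 root were looped to each other in MH63 root. The loops of that list took no part in calling them, though its anchors were among those merged into regions. There, 30.5% of their partners within a chromosome were themselves gained regions, where such regions made up 21.0% of the partners of all regions. Between chromosomes the values were 16.5% and 15.9%. In MH63 seedling they were 14.8% and 8.37% within, and 6.87% and 7.46% between chromosomes. Gained regions cluster along chromosomes 11, 12 and 4, and the part of this position in the values was not tested.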
